A study of Mus musculus with 8 samples.

Results

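Fibroblast growth factor (FGF) signalling was followed through 35 genes: 22 ligands, 5 receptors and 8 feedback genes. The members were chosen by gene name among the probes of the array. They were represented by 57 probes (35 for ligands, 11 for receptors and 11 for feedback genes), and the array as a whole gave values for 34728 names. Testing required that the brightest probe of a gene stood well above background in both replicates of 1 group or more. This held for 30 of the 35 members (17 ligands, 5 receptors and 8 feedback genes) and for 25888 names in all.

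Secreted FGFs bind receptor tyrosine kinases at the cell surface together with heparan sulfate. The receptors then pass the signal through the adaptor FRS2 to RAS and the kinases that end in ERK, and ERK signalling in turn raises transcripts of ETS factors (Etv4, Etv5) and of inhibitors (the Sprouty and Spred proteins, and the phosphatase Dusp6) that dampen the pathway. In mouse embryonic stem (ES) cells the pathway is known for pushing cells out of self-renewal, and in the embryo it acts in the migration of mesoderm and in the second heart field.

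RNA came from mouse ES cells at day 0 and from the same kind of cells at day 6 of differentiation towards cardiac progenitors. Differentiation went through embryoid bodies, which are aggregates of differentiating cells. These were kept as hanging drops of 800 cells for 2 days and then in suspension for 3 days. They were plated at day 5 and stayed plated for 24 hours. The cells were either wild type (WT) or heterozygous for Nkx25-R141C, a mutation in the cardiac transcription factor Nkx2-5, written R141C below. There were 2 biological replicates in each of the 4 groups (WT day 0, WT day 6, R141C day 0 and R141C day 6), and each was hybridised to a one-colour array. The strain of the cells and the number of clones behind each genotype were not given in the sources used here, and all cells of a day 6 culture were measured together.

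Between 30989 and 39185 probes per array were well above background (55.8% to 70.5%). Arrays of the same group correlated across genes with r from 0.982 (R141C day 6) to 0.994 (WT day 6). Arrays of the same day and different genotypes did so with r from 0.976 to 0.991, a range that overlaps that of the replicates. Group and position on the single slide cannot be told apart. The probe of Nkx2-5 reads the transcript and not the mutation. Its log2 signal was -1.27 and -2.02 in WT day 0, 1.93 and 1.79 in WT day 6, 1.84 and -0.77 in R141C day 0, and 1.53 and 1.58 in R141C day 6, so replicate 1 of R141C day 0 stood apart from the other day 0 arrays. Of 10 markers of undifferentiated ES cells, 10 fell from day 0 to day 6 in WT and 9 in R141C. Of 10 cardiac muscle markers, 8 rose in WT and 3 in R141C. The log2 of their summed signal at day 6 was 8.54 and 8.88 in WT against 4.06 and 7.27 in R141C. At day 0 it was 4.19 and 2.60 in WT and 4.05 and 5.29 in R141C. By this sum, replicate 1 of R141C day 6 lay within the range of the day 0 arrays. No cardiac marker passed between genotypes at day 6 (smallest adjusted p = 0.411) or in the difference between the responses (smallest adjusted p = 0.786). Markers of endoderm (8 of 8) and blood (7 of 7) rose in both genotypes, and 4 of 6 endothelium markers rose in each. Of 7 tested neural markers, 4 fell in WT and 5 in R141C. At day 6, 6 of these 7 had a smaller mean in R141C than in WT without overlap, and 1 a larger one. No neural marker passed between genotypes at day 6 (smallest adjusted p = 0.180 in the limma fit). Of 5 primed epiblast markers, 1 rose and 1 fell in WT, and 1 fell in R141C. Of 7 fibroblast and feeder markers, 1 rose and 1 fell in WT, and 0 passed in R141C.

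All levels below are log2 processed signals for which 0 is the 75th percentile of the array. Differences are log2 differences between group means with the standard error (SE) of the limma fit, and adjusted p values are Benjamini-Hochberg values of that two-sided fit over all tested genes. A gene was said to rise or fall only where the adjusted p was under 0.05. Since each value comes from a whole culture, fewer cells of a type and less RNA per cell cannot be told apart.

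From day 0 to day 6, 13 of the 30 tested members passed in WT (7 higher, 6 lower) and 11 in R141C (7 higher, 4 lower). The share of all tested genes that passed was 24% in WT (11% higher, 12.9% lower) and 15.6% in R141C (7.6% higher, 8.04% lower). The ligands divided: 4 rose and 3 fell in each genotype, with Fgf10, Fgf8 and Fgf3 among the risers and Fgf4, Fgf17 and Fgf18 among the fallers in both. No receptor fell. Of the 8 feedback genes, Spry1 rose in both genotypes, Etv5 fell in both, and Etv4 and Spry4 passed as lower in WT. The median difference of the tested members was 0.03 in WT and 0.20 in R141C, against -0.12 and -0.03 over all tested genes. The 2 days did not overlap for 23 of the 30 members in WT and for 19 in R141C, against 71.3% and 56% of all tested genes.

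**Figure D1:**
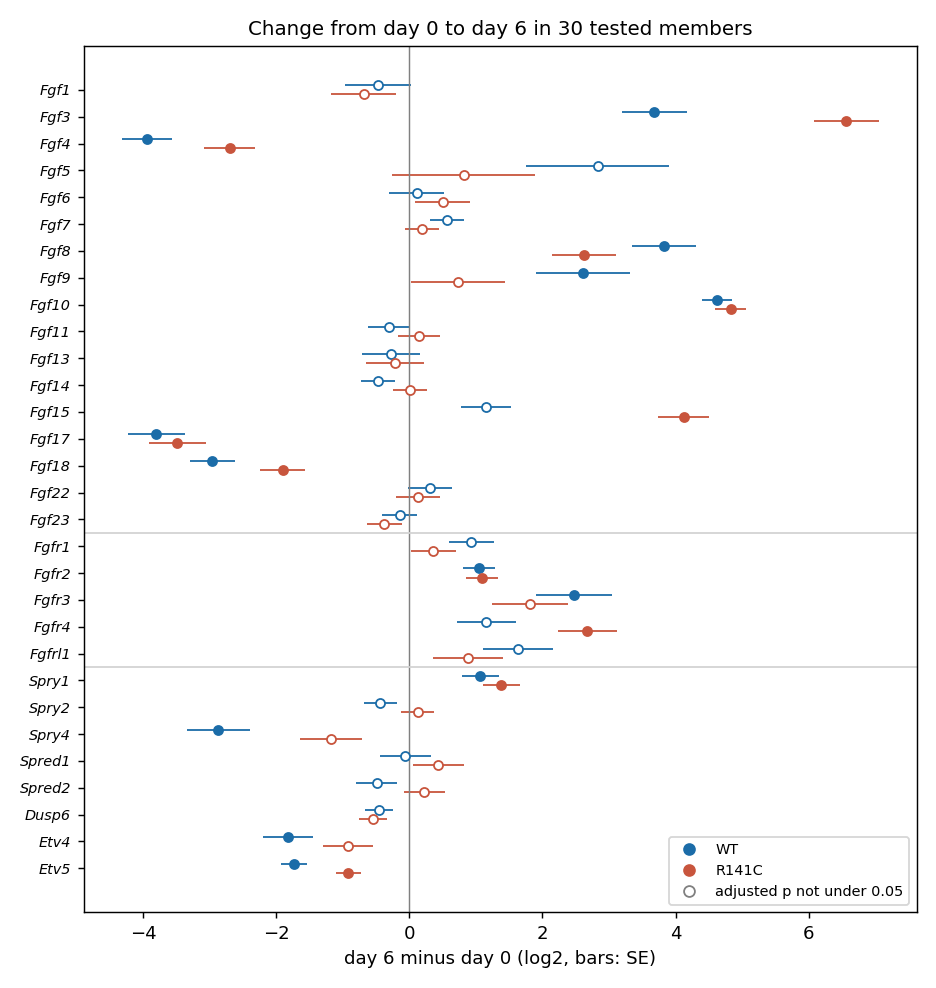
Log2 difference between day 6 and day 0 (horizontal axis, bars are SE of the limma fit) for the 30 tested members, with WT in blue and R141C in red, in the order ligands, receptors and feedback genes. Filled points have an adjusted p under 0.05: 13 in WT and 11 in R141C, with Fgf10 near 4.62 and 4.83 in WT and R141C, and every receptor to the right of 0.

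The ligand with the smallest p in both genotypes was Fgf10, a ligand of the FGFR2 IIIb isoform that is expressed in the second heart field and in mesenchyme. Its log2 signal was -3.99 and -3.76 in WT day 0, 0.89 and 0.62 in WT day 6, -4.13 and -3.68 in R141C day 0, and 0.90 and 0.95 in R141C day 6. The day 6 arrays were high and the day 0 arrays low, without overlap. The genotypes overlapped at day 0, and at day 6 both R141C arrays were just above the higher WT array. Fgf10 rose 24.6-fold in WT (difference 4.62, SE 0.23, adjusted p = 0.000315) and 28.4-fold in R141C (difference 4.83, SE 0.23, adjusted p = 0.000456). Leaving out any 1 array kept the difference between 4.49 and 4.76 in WT and between 4.61 and 5.05 in R141C. The Fgf10 promoter is printed because this gene had the smallest p in both genotypes. It runs from 250 bases before to 50 bases after the transcript start (RefSeq, GRCm38.p6, chr13:118714449-118714748, plus strand, 60.7% G and C). Capitals mark a GC box, which lies on the reverse strand at -199 from the start.
Fgf10 promoter: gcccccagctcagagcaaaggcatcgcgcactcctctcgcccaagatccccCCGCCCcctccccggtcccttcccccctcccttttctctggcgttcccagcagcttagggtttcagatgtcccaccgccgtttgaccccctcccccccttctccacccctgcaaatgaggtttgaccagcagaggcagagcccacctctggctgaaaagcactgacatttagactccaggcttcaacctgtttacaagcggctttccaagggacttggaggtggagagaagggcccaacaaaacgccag

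Fgf8, a ligand needed for mesoderm to move away from the primitive streak and later active in the second heart field, was at log2 signals of -1.72 and -0.98 in WT day 0 and 2.69 and 2.28 in WT day 6. In R141C it was at 1.12 and 1.48 at day 0 and at 4.61 and 3.24 at day 6. Day 6 lay above day 0 in each genotype, and R141C lay above WT at each day, with no overlap. Fgf8 rose 14.2-fold in WT (difference 3.83, SE 0.48, adjusted p = 0.00299) and 6.17-fold in R141C (difference 2.63, SE 0.48, adjusted p = 0.0157). The R141C call was lost without replicate 1 of R141C day 0 (adjusted p = 0.088) or replicate 2 (adjusted p = 0.052), where the lone day 0 array was assumed to vary like the other groups. A second Fgf8 probe, well above background on all 8 arrays, was higher at day 6 by 3.21 in WT and 2.23 in R141C. The other probe was well above background on 2 arrays, both R141C day 6, so it gives no further size. The second probe is printed because it gives a separate reading of the gene with the largest day 0 genotype difference. It shares no bases with the first (mm9, chr19:45811668-45811727, minus strand).
Fgf8 probe: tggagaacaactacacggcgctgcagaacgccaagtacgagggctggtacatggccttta

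Fgf3 is a ligand that acts beside Fgf10 in the second heart field and in the inner ear. Its log2 signal was -4.38 and -3.97 in WT day 0, -0.43 and -0.55 in WT day 6, -4.21 and -5.78 in R141C day 0, and 1.40 and 1.74 in R141C day 6. The 4 day 0 arrays were low, the WT day 6 arrays intermediate and the R141C day 6 arrays highest, with no overlap between days. Fgf3 rose 12.8-fold in WT (difference 3.68, SE 0.48, adjusted p = 0.00348). In R141C the fitted rise was 94.7-fold (difference 6.57, SE 0.48, adjusted p = 0.00095), the largest difference among the members in either genotype. In R141C day 0 it was well above background on 1 of 2 arrays, and without the dim array, replicate 2, the difference was 5.78. The promoter is printed with a GATA site (AGATAA) in capitals, which is written TTATCT because it lies on the reverse strand, at -115 from the start (RefSeq, GRCm38.p6, chr7:144838362-144838661, plus strand, 59.3% G and C). The 60 bases of the probe span 1860 bases of mm9 (chr7:152026667-152028526, plus strand), so they are not contiguous in the genome.
Fgf3 promoter: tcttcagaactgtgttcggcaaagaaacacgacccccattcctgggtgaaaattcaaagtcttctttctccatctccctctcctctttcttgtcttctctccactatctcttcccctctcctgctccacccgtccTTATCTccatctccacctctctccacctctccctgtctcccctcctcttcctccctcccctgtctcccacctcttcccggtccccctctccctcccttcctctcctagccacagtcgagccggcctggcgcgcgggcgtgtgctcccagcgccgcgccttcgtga
Fgf3 probe: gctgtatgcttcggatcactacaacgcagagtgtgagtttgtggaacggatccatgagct

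Fgf15, the mouse counterpart of human FGF19 and an endocrine ligand that is also expressed in the embryo, passed in R141C. Arrays read log2 signals of -0.52 and -0.75 in WT day 0, 0.75 and 0.28 in WT day 6, -1.82 and -2.59 in R141C day 0, and 1.50 and 2.32 in R141C day 6. R141C was below WT at day 0 and above it at day 6, and no groups overlapped. In R141C Fgf15 rose 17.4-fold (difference 4.12, SE 0.38, adjusted p = 0.00166), whereas the WT difference of 1.15 (SE 0.38) had an adjusted p of 0.0706. The difference between these responses was 2.97 (SE 0.54), with an adjusted p of 0.475.

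Fgf4, the ligand that ES cells make for themselves and that primes them to leave self-renewal, was at log2 signals of 5.04 and 4.81 in WT day 0 and 1.12 and 0.84 in WT day 6. In R141C it was at 4.50 and 3.34 at day 0 and at 1.07 and 1.38 at day 6. Day 0 was high and day 6 low in both genotypes, with replicate 2 of R141C day 0 the lowest day 0 array. Fgf4 fell 15.4-fold in WT (difference -3.94, SE 0.38, adjusted p = 0.00126) and 6.48-fold in R141C (difference -2.70, SE 0.38, adjusted p = 0.00667). Leaving out any 1 array kept both calls, with R141C differences from -3.28 to -2.12. Its promoter is shown beside that of Fgf3 as a neighbour that moved the other way (RefSeq, GRCm38.p6, chr7:144861136-144861435, plus strand, 69.7% G and C). Capitals mark 2 GC boxes (GGGCGG) on the plus strand, at -214 and -188 from the start.
Fgf4 promoter: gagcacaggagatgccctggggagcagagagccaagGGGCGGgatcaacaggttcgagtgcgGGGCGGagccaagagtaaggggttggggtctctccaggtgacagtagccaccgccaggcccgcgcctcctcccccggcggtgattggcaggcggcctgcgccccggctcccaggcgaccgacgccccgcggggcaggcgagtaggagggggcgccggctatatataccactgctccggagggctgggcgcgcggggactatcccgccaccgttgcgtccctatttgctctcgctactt

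Fgf3, Fgf4 and Fgf15 lie in this order on chromosome 7. On mm9 the start of the Fgf4 probe is 24.4 kb from that of Fgf3, and the start of the Fgf15 probe a further 35.3 kb away. The RefSeq table (GRCm38.p6 names) lists 1 other gene between them, the noncoding Gm26793. The outer pair was higher at day 6 and the middle gene lower, in both genotypes, with Fgf15 short of the threshold in WT.

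Fgf17 and Fgf18 belong with Fgf8 to the same ligand subfamily, and both fell in both genotypes. The log2 signal of Fgf17 was -1.84 and -2.37 in WT day 0, -5.26 and -6.54 in WT day 6, -1.51 and -1.69 in R141C day 0, and -4.89 and -5.28 in R141C day 6. The 4 day 0 arrays were above all day 6 arrays. Neither WT day 6 array was well above background, so the fall in WT is a bound: Fgf17 was at least 8.91-fold lower (means of -2.11 and -5.90, adjusted p = 0.00207), taken against the higher of the probe's own signal and the lowest signal well above background on each array. In R141C Fgf17 fell 11.2-fold (difference -3.48, SE 0.43, adjusted p = 0.00437).

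Fgf18 was at log2 signals of 1.83 and 1.63 in WT day 0, -1.21 and -1.25 in WT day 6, 1.01 and 1.79 in R141C day 0, and -0.85 and -0.15 in R141C day 6. Day 0 and day 6 did not overlap in either genotype, and the R141C arrays of each day were farther apart than the WT arrays. Fgf18 fell 7.77-fold in WT (difference -2.96, SE 0.34, adjusted p = 0.00212) and 3.74-fold in R141C (difference -1.90, SE 0.34, adjusted p = 0.0141). The R141C call was lost without replicate 2 of R141C day 0 (adjusted p = 0.054) or replicate 1 of R141C day 6 (adjusted p = 0.055). A second probe, which shares bases with the first, gave -3.51 and -2.28.

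Fgf9, a ligand by which epithelia signal to mesenchyme, passed in WT alone. Its log2 signal was -4.64 and -6.87 in WT day 0, with the second array not well above background, and -3.0 and -3.29 in WT day 6. In R141C it was -4.35 and -5.20 at day 0 and -4.40 and -3.69 at day 6, where the days overlapped. The WT difference was 2.61 (SE 0.71, adjusted p = 0.0391), and 1.50 (adjusted p = 0.092) without the dim array, replicate 2 of WT day 0. It also missed the threshold without any other single array except replicate 1 of WT day 0, with adjusted p up to 0.157. The genotypes' Fgf9 responses were not shown to differ (adjusted p = 0.908).

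Fgf5, a marker of the primed epiblast, was at log2 signals of -0.42 and -0.13 in WT day 0 and 2.76 and 2.35 in WT day 6. In R141C it was at 0.75 and -1.20 at day 0 and at -1.06 and 2.26 at day 6. The WT groups stood apart, and the R141C replicates were far apart at day 6 (SD 2.35), with replicate 1 low. The WT difference of 2.83 (SE 1.07) had an adjusted p of 0.103. With the 4 WT arrays alone the adjusted p was 0.0068, and it was 0.027 without either R141C day 6 array, so the spread within R141C decided the call. Replicate 1 of R141C day 6 was also the array with the lower cardiac and endoderm marker signal (4.06 against 7.27 and 4.86 against 6.15), whose part in the Fgf5 values was not tested.

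Fgf1, a ligand that binds all FGF receptors, was at log2 signals of -1.81 and -1.44 in WT day 0, -2.19 and -1.99 in WT day 6, -2.28 and -3.80 in R141C day 0, and -3.42 and -4.03 in R141C day 6. The R141C arrays were below the WT arrays of the same day, and no difference between days passed. The remaining tested ligands are given by their group means. Fgf6 and Fgf7 had group means from -1.40 to -0.90 and from -4.67 to -4.01. Fgf22, of the Fgf7 subfamily, lay from -2.56 to -2.05, and its second probe was well above background on the 4 day 0 arrays and on 0 of the day 6 arrays. Fgf23, an endocrine regulator of phosphate, lay from 1.27 to 1.65, but its probe holds a run of 10 CA repeats (CACACACACACACACACACA) and its other probe was well above background on no array, so that signal cannot be assigned to Fgf23. Fgf11, Fgf13 and Fgf14, intracellular proteins that bind sodium channels and not FGF receptors, had group means from -3.92 to -3.57, from -2.82 to -1.76 and from -3.65 to -3.04. The second probe of Fgf6 was well above background on 2 arrays, 1 of each genotype at day 6. None of these genes passed in any comparison by its brightest probe, and second probes were not tested on their own.

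Not tested were 5 ligands. The probes of Fgf12 and Fgf16 were not well above background on any array. Fgf21 was well above background on 1 array. The brightest probe of Fgf2, a ligand often added to primed stem cell cultures, reached that level on 2 arrays. The brightest probe of Fgf20 reached it on 0 arrays and its other probe on 1.

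**Figure D2:**
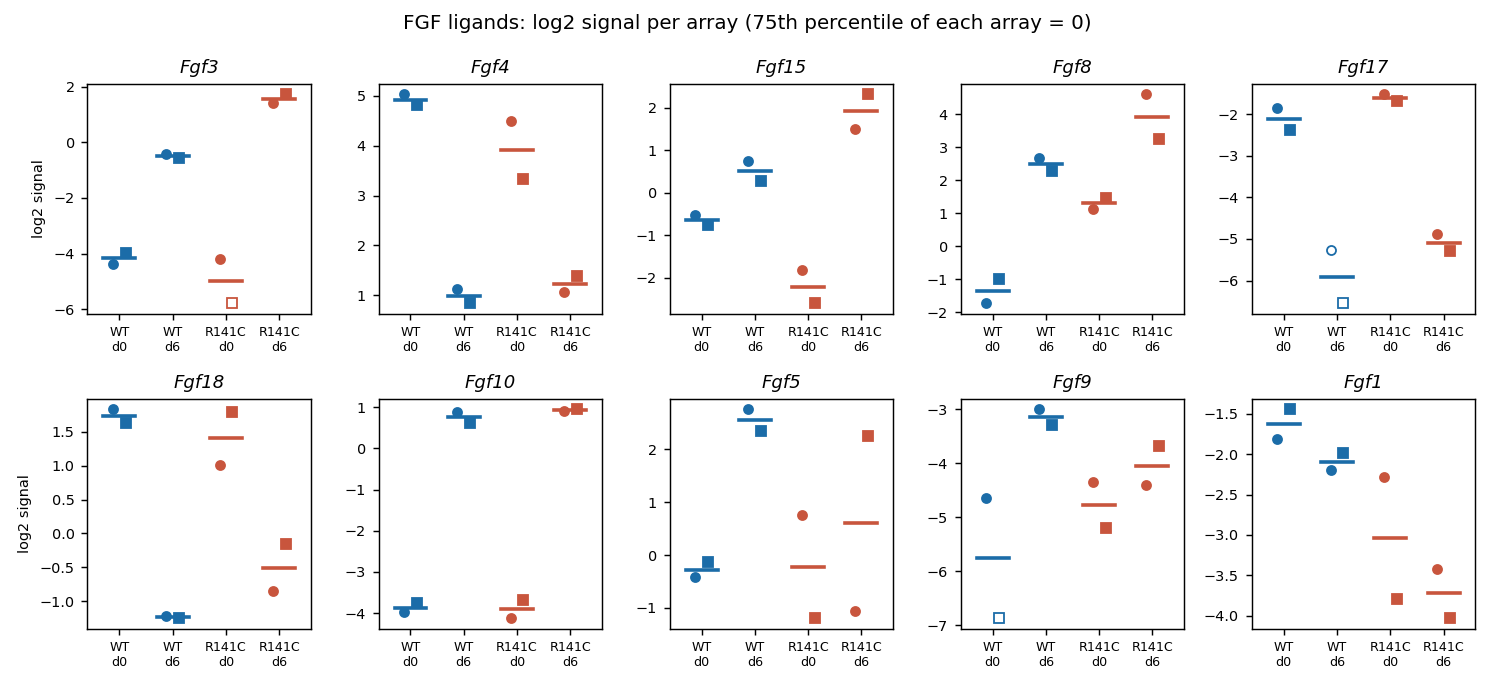
Log2 signal per array (vertical axis, 0 is the 75th percentile of the array) of 10 ligands in the 4 groups, where circles are replicate 1, squares replicate 2, lines the group means, and open symbols arrays not well above background. Fgf3, Fgf8 and Fgf10 are higher at day 6 and Fgf4, Fgf17 and Fgf18 lower in both genotypes, and the R141C day 6 arrays of Fgf5 lie at -1.06 and 2.26.

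All 5 receptors had a higher mean at day 6 in both genotypes, and 2 of the 5 passed in each. Over all tested genes, 42.9% had a difference above 0 in WT and 48.1% in R141C. The median receptor difference was 1.15 in WT and 1.09 in R141C.

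Fgfr2, the receptor kinase for Fgf10 in its IIIb form, was at log2 signals of -1.47 and -1.81 in WT day 0, -0.55 and -0.63 in WT day 6, -1.74 and -1.65 in R141C day 0, and -0.86 and -0.35 in R141C day 6. Day 6 lay above day 0 without overlap and the genotypes lay together. Fgfr2 rose 2.07-fold in WT (difference 1.05, SE 0.24, adjusted p = 0.0233) and 2.13-fold in R141C (difference 1.09, SE 0.24, adjusted p = 0.0281). Both calls depended on single arrays: the WT call was lost without replicate 2 of WT day 0 or either WT day 6 array (adjusted p up to 0.124). The R141C call was lost without either R141C day 0 array, replicate 2 of R141C day 6 or either WT day 6 array (adjusted p up to 0.124). The R141C call was also lost with the mean of probes and with only the arrays compared. A second probe that overlaps the first, not tested on its own, was higher at day 6 by 1.80 in WT and 1.53 in R141C.

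Fgfr3 was at log2 signals of 0.10 and 0.29 in WT day 0, 2.67 and 2.66 in WT day 6, 0.73 and -0.42 in R141C day 0, and 1.16 and 2.78 in R141C day 6. The R141C replicates were farther apart than the WT replicates at both days. It rose 5.56-fold in WT (difference 2.48, SE 0.57, adjusted p = 0.0235), a call that was lost without any of the 4 WT arrays (adjusted p from 0.075 to 0.108). In R141C the difference of 1.82 (SE 0.57) had an adjusted p of 0.0797, and the difference was 2.63 without replicate 1 of R141C day 6. A second probe, well above background on all 8 arrays, gave smaller differences of 1.46 in WT and 0.88 in R141C. The remaining probe was well above background on 1 array.

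Fgfr4 showed the opposite balance. Log2 signals were -1.14 and -0.38 in WT day 0, 0.00 and 0.78 in WT day 6, -1.87 and -2.05 in R141C day 0, and 0.22 and 1.21 in R141C day 6. The R141C day 0 arrays were the lowest and the day 6 arrays of both genotypes overlapped. Fgfr4 rose 6.38-fold in R141C (difference 2.67, SE 0.44, adjusted p = 0.0111), which missed the threshold without replicate 1 (adjusted p = 0.056) or replicate 2 (adjusted p = 0.053) of R141C day 0. The WT difference of 1.15 (SE 0.44) had an adjusted p of 0.106. A second probe gave 0.36 in WT and 1.28 in R141C.

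Fgfr1, the main receptor kinase of ES cells, was at log2 signals of 4.65 and 3.63 in WT day 0, 5.19 and 4.95 in WT day 6, 4.89 and 4.70 in R141C day 0, and 5.15 and 5.16 in R141C day 6. Replicate 2 of WT day 0 was low, and without it the WT difference went from 0.93 (SE 0.34, adjusted p = 0.0935) to 0.42. Without replicate 1 of WT day 0 the WT difference was 1.44. The other Fgfr1 probes gave 0.45 and 0.81 in WT, and 0.41 and 0.02 in R141C. Fgfrl1, a receptor-like protein without a kinase domain, was at 2.21 and 1.69 in WT day 0, 3.58 and 3.58 in WT day 6, 1.57 and 3.00 in R141C day 0, and 2.67 and 3.66 in R141C day 6. Its WT difference was 1.63 (SE 0.52, adjusted p = 0.0663), and the R141C days overlapped. With the WT arrays alone the adjusted p of Fgfrl1 was 0.019.

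**Figure D3:**
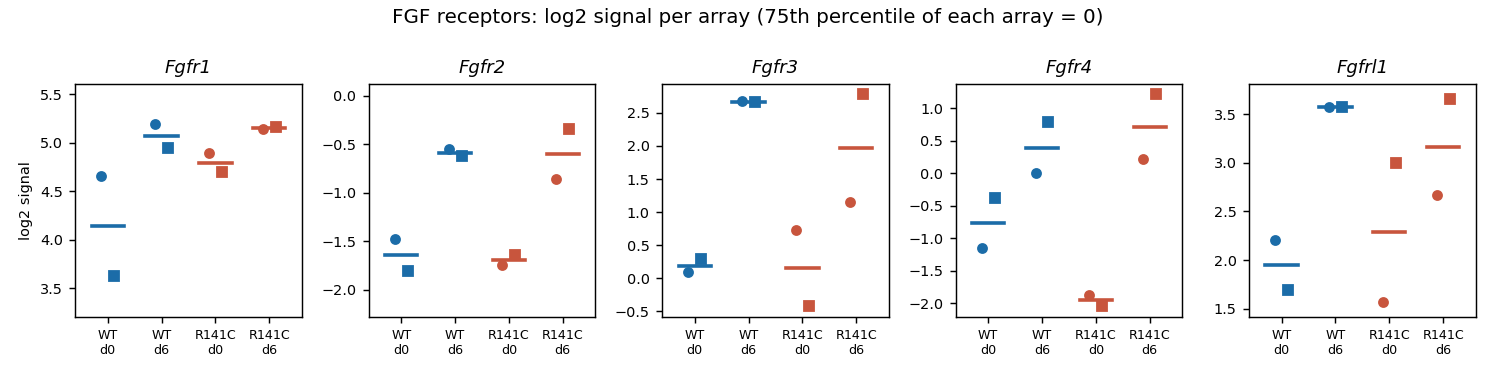
Log2 signal per array (vertical axis, 0 is the 75th percentile of the array) of the 5 receptors in the 4 groups, where circles are replicate 1, squares replicate 2 and lines the group means. Every group mean at day 6 is above the day 0 mean of its genotype, and the R141C arrays of Fgfr3 and Fgfrl1 are spread more widely than the WT day 6 arrays.

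The feedback genes were mostly lower at day 6 in WT, with 7 of 8 means below day 0, and evenly divided in R141C, with 4 of 8. Over all tested genes, 57.1% were below 0 in WT and 51.9% in R141C. Of these genes, 3 fell in WT and 1 in R141C, and Spry1 rose in both. The median feedback difference was -0.48 in WT and -0.21 in R141C.

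Etv5, an ETS transcription factor induced by ERK, was at log2 signals of 6.15 and 6.38 in WT day 0, 4.58 and 4.48 in WT day 6, 6.21 and 6.04 in R141C day 0, and 5.25 and 5.16 in R141C day 6. Replicates were close in every group, day 0 was high in both genotypes, and R141C day 6 lay between day 0 and WT day 6. Etv5 fell 3.33-fold in WT (difference -1.74, SE 0.19, adjusted p = 0.00192) and 1.88-fold in R141C (difference -0.91, SE 0.19, adjusted p = 0.0240). The WT call stood without any 1 array. The R141C call was lost without any of the 4 R141C arrays or either WT day 6 array (adjusted p from 0.061 to 0.113), and the difference stayed between -1.0 and -0.83.

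Its relative Etv4 was at log2 signals of 4.66 and 5.69 in WT day 0, 3.42 and 3.29 in WT day 6, 4.72 and 4.46 in R141C day 0, and 3.98 and 3.37 in R141C day 6. Replicate 2 of WT day 0 was the highest array. Etv4 fell 3.53-fold in WT (difference -1.82, SE 0.38, adjusted p = 0.0162), and without that array the difference was -1.30 (adjusted p = 0.051). The call was also lost without replicate 1 (adjusted p = 0.074) or replicate 2 (adjusted p = 0.095) of WT day 6. In R141C the difference was -0.92 (SE 0.38, adjusted p = 0.157), and a second probe gave -1.87 and -1.05.

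Spry4, a Sprouty inhibitor of receptor tyrosine kinase signalling, was at log2 signals of 0.30 and 1.62 in WT day 0, -1.87 and -1.94 in WT day 6, 0.62 and -0.24 in R141C day 0, and -0.92 and -1.05 in R141C day 6. WT day 6 was the lowest group, below R141C day 6. Spry4 fell 7.29-fold in WT (difference -2.87, SE 0.47, adjusted p = 0.00728), while the R141C difference of -1.17 (SE 0.47) had an adjusted p of 0.145. Without 1 array, the WT difference ranged from -3.53 to -2.20, the latter without replicate 2 of WT day 0.

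Spry1 moved the other way from Spry4. Its log2 signal was 1.52 and 2.08 in WT day 0, 2.92 and 2.81 in WT day 6, 1.64 and 1.71 in R141C day 0, and 2.78 and 3.33 in R141C day 6. All 4 day 6 arrays were above all day 0 arrays. Spry1 rose 2.09-fold in WT (difference 1.06, SE 0.28, adjusted p = 0.0347) and 2.60-fold in R141C (difference 1.38, SE 0.28, adjusted p = 0.0212). The WT call was lost without replicate 1 of WT day 0, either WT day 6 array or either R141C day 0 array, with adjusted p up to 0.160. The R141C call was lost without either R141C day 0 array or replicate 2 of R141C day 6, with adjusted p up to 0.099.

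Dusp6, the phosphatase that removes phosphate from ERK, was at log2 signals of 4.63 and 4.29 in WT day 0, 4.10 and 3.89 in WT day 6, 4.86 and 4.76 in R141C day 0, and 4.35 and 4.18 in R141C day 6. Day 6 was below day 0 in both genotypes without overlap. The R141C difference was -0.54 (SE 0.21, adjusted p = 0.134), and neither genotype passed. Spry2, Spred1 and Spred2 did not pass either. Spry2 was at log2 signals of 0.50 and 1.07 in WT day 0, 0.50 and 0.21 in WT day 6, 0.49 and 0.70 in R141C day 0, and 0.72 and 0.72 in R141C day 6. The WT replicates of Spred1 at day 0, 1.46 and 2.57, enclosed all its other arrays. Spred2 group means lay from 0.29 to 0.78.

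**Figure D4:**
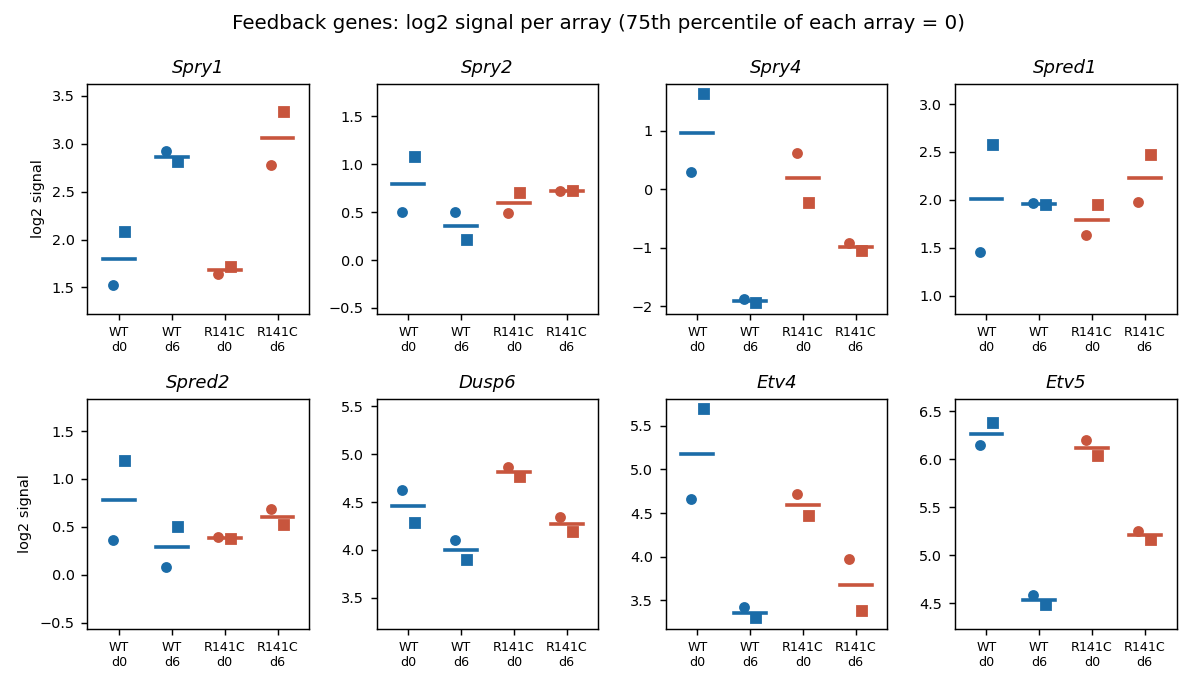
Log2 signal per array (vertical axis, 0 is the 75th percentile of the array) of the 8 feedback genes in the 4 groups, where circles are replicate 1, squares replicate 2 and lines the group means. Spry1 is higher at day 6 in both genotypes, Etv5 is lower with R141C day 6 (5.25 and 5.16) above WT day 6 (4.58 and 4.48), and the axes differ between genes.

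During the same interval the primitive streak and early mesoderm markers rose, 8 of 8 in WT and 6 of 8 in R141C, as the undifferentiated markers fell. The log2 of the summed signal of the undifferentiated markers was between 8.72 and 9.47 on the day 0 arrays and between 6.10 and 6.83 on the day 6 arrays. For the streak markers it was 1.88 and 1.69 in WT day 0, 3.64 and 4.08 in R141C day 0, 5.21 and 4.67 in WT day 6, and 6.16 and 5.73 in R141C day 6. The summed streak signal was higher in R141C than in WT at both days, as was Fgf8. Fgf3 was higher at day 6 and had a lower mean in R141C at day 0 (difference -0.82). Of the 8 streak markers, 6 had a higher mean in R141C and 2 a lower one at each day. None of them passed between genotypes in limma (smallest adjusted p = 0.999 at day 0 and 0.276 at day 6). The part of the cultures' cell makeup in the FGF differences was not tested.

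Beyond the 35 members, 3 lists of pathway genes were read from the same fit. Of 25 co-receptor and heparan sulfate genes 23 were tested, of which 5 rose and 2 fell in WT and 3 rose and 2 fell in R141C, beside 24% and 15.6% of all tested genes that passed in either direction. Their median difference was 0.67 in WT and 0.14 in R141C. The glypican Gpc3, a heparan sulfate carrier at the cell surface, rose by 3.59 in WT (SE 0.27, adjusted p = 0.000614) and by 3.65 in R141C (SE 0.27, adjusted p = 0.000994). Fgfbp1, a secreted carrier that releases FGFs from the matrix, fell by 4.15 in WT (adjusted p = 0.00158) and by 4.56 in R141C (adjusted p = 0.00176). In WT the glypicans Gpc6 (3.59, adjusted p = 0.0132) and Gpc2 (2.05, adjusted p = 0.00938) also rose. Klb, the co-receptor for endocrine FGFs, rose by 2.44 in R141C (adjusted p = 0.0106), against a WT difference of 1.29 (adjusted p = 0.0583), and Gpc4 fell by 1.89 in R141C (adjusted p = 0.0497).

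Of 26 transducers from the receptor to ERK, all tested, 2 rose and 1 fell in each genotype, with medians of 0.14 and 0.15. The share of all tested genes that passed was again 24% in WT and 15.6% in R141C, for this list and the next. These were the ERK kinase Mapk3 (1.21 in WT and 1.25 in R141C), the phospholipase Plcg1 (1.23 and 1.31) and the docking protein Gab1 (-1.63 and -2.11). Of 18 further feedback and target genes 17 were tested, of which 3 rose and 1 fell in WT and 1 rose and 3 fell in R141C, with medians of 0.43 and -0.01. Flrt2 and Flrt3, membrane proteins of which Flrt3 binds FGF receptors, rose in WT by 3.82 (adjusted p = 0.0350) and 3.17 (adjusted p = 0.00678), while the R141C differences of 2.0 and 1.59 did not pass. The phosphatases Dusp14 and Dusp5 fell in R141C by 3.38 (adjusted p = 0.00651) and 1.77 (adjusted p = 0.0176), against WT differences of -1.20 and -0.53 that did not pass. Fosl1, an AP-1 subunit induced by ERK, fell by 2.62 in WT and by 2.38 in R141C, and Ets2 rose by 0.96 and 1.0. None of these genes passed in a genotype comparison or in the difference between the responses.

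The comparison of the genotypes asked whether FGF transcripts differed with the mutation after differentiation and in undifferentiated cells. At day 6, no FGF member passed between R141C and WT in limma (smallest adjusted p = 0.350), and 17 of all 25888 tested genes did (0.0657%). At an unadjusted p under 0.05 there were 5 members, 4 higher and 1 lower, against 8.53% of all tested genes (5.15% higher, 3.38% lower). These 5 were Fgf3 (difference 2.06, SE 0.48), Fgf15 (1.40, SE 0.38), Etv5 (0.68, SE 0.19), Fgf1 (-1.63, SE 0.49) and Fgf8 (1.44, SE 0.48), with adjusted p from 0.350 to 0.477. For each of them both R141C day 6 arrays lay outside the range of the WT day 6 arrays. That adds no separate support, since the 5 were picked by p from the same arrays. Groups did not overlap for 17 of 30 members (13 higher, 4 lower), and for 44.3% of all tested genes (27.8% higher, 16.5% lower).

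By class, all 8 feedback genes had a higher mean in R141C than in WT at day 6, with differences from 0.19 to 0.92 and a median of 0.32, and none passed. Over all tested genes 58.1% of differences were above 0 and the median was 0.07. The arrays did not overlap for 6 of these 8 genes, against 44.3% of all tested genes. No receptor was free of overlap, and the median receptor difference was -0.02. The ligands were mixed, with 7 of 17 higher and 4 of 17 lower without overlap, against 27.8% and 16.5% of all tested genes. The list of other feedback and target genes did not share the direction of the 8 feedback members. Of its 17 tested genes, 8 were higher and 9 lower in R141C at day 6, with a median of -0.19. In that list 3 were higher and 4 lower without overlap. The direction of the 8 feedback members was not shared by day 0, where 7 had a lower mean in R141C and 1 a higher one. Their median difference at day 0 was -0.21, and none passed. Over all 25888 tested genes, 12793 differences were below 0 at day 0 and the median was 0.0047. Groups did not overlap at day 0 for 1 of the 8, against 28.8% of all tested genes.

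At day 0 no member passed between the genotypes either, and 0% of all tested genes did. At an unadjusted p under 0.05 there were 5 members, 1 higher and 4 lower, against 4.5% of all tested genes (2.29% higher, 2.21% lower). The higher one was Fgf8 (difference 2.65, SE 0.48, adjusted p = 0.655), which also had the smallest unadjusted p, 0.00106. The lower ones were Fgf15 (-1.57), Fgf1 (-1.41), Fgfr4 (-1.20) and Fgf4 (-1.0), each with an adjusted p of 0.999. All 4 were at their lowest day 0 signal on replicate 2 of R141C day 0, and without it the differences were -1.19 for Fgf15, -0.65 for Fgf1, -1.11 for Fgfr4 and -0.42 for Fgf4. Groups did not overlap for 11 of 30 members (6 higher, 5 lower), against 28.8% of all tested genes (14.5% higher, 14.3% lower). The summed signal of the streak markers was higher in R141C day 0 (3.64 and 4.08) than in WT day 0 (1.88 and 1.69), as that of Fgf8 was. Of the 10 undifferentiated markers, 9 had a lower mean in R141C day 0, with a median difference of -0.68, and none passed. Their summed signal was lowest among the day 0 arrays on replicate 2 of R141C day 0 (8.72). That array also had the highest day 0 sum of the cardiac (5.29), fibroblast and feeder (5.67), endothelium (3.17) and endoderm (-0.77) markers. It had the lowest sum of the blood markers (-0.69), and lay between other day 0 arrays for the neural and primed epiblast markers. The part of any of these marker lists in the day 0 differences of the members was not tested.

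**Figure D5:**
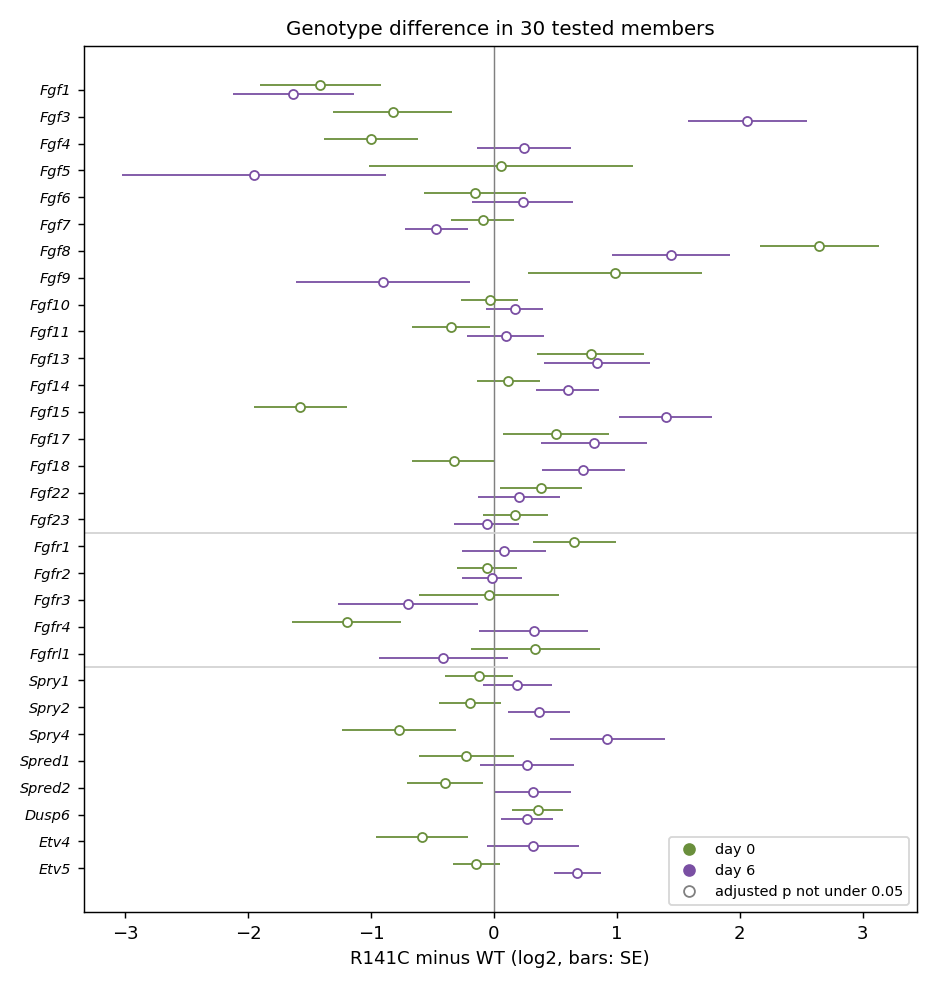
Log2 difference between R141C and WT (horizontal axis, bars are SE of the limma fit) for the 30 tested members at day 0 (green) and day 6 (purple). Every point is open, since no member had an adjusted p under 0.05. All 8 feedback genes lie to the right of 0 at day 6, and 7 of the 8 lie to the left of 0 at day 0.

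The difference between the genotypes' responses passed for no member and for 0% of all tested genes. There were 5 members with an unadjusted p under 0.05, against 5.64% of all tested genes (3.14% above 0, 2.5% below), and each difference was above 0. They were Fgf15 (2.97, adjusted p = 0.475), Fgf3 (2.88, adjusted p = 0.688), Etv5 (0.82, adjusted p = 0.825), Spry4 (1.70, adjusted p = 0.874) and Fgfr4 (1.52, adjusted p = 0.876). For Fgf15, Fgf3 and Fgfr4 the rise in R141C was the larger, and for Etv5 and Spry4 the fall in WT was the larger. The median over the tested members was 0.31 and over all tested genes 0.08. Leaving out any 1 array gave no call of a member in this comparison or in the other genotype comparisons. A call present in one genotype and absent in the other, as for Fgf9, Fgf15, Fgfr3, Fgfr4, Etv4 and Spry4, is therefore not a shown difference between genotypes.

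Promoters of 26 members (34 promoters of 300 bases) were matched by symbol in the RefSeq table. No entry was matched for Fgf1, Fgf8, Fgf15, Fgf16, Fgf17, Fgf20, Fgfr1, Spry4 and Etv4. The letters of 6 motifs were searched on both strands, and overlapping matches were counted. The GC box (GGGCGG) stood in 22 member promoters (64.7%), against 35.7% of 32851 promoters in the table. An ETS core (CCGGAA) was in 5 (14.7%, against 14.9%), a TATA box (TATAAA) in 3 (8.82%, against 13.6%), a GATA site in 3 (8.82%, against 11.2%) and an octamer (ATGCAAAT) in 1 (2.94%, against 1.74%). The Nkx2-5 letters TNAAGTG were in none of the 34 windows, against 11.54% of all. These matches are letters in a window and do not show binding.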

How the data were processed

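RNA of 8 cultures (4 groups of 2) was measured on one-colour Agilent arrays. Per the file headers, scanner output was written by Agilent Feature Extraction 11.5.1.1, while the submitters' processing notes name 10.5.1.1. The authors deposited processed signals as intensity on a linear scale, background-subtracted and not normalized between arrays. Mean spot and local background signals were deposited as uncorrected intensity. The spot flags for outliers and background are other deposited values, 0 or 1. The authors also deposited a matrix of log2 values for 36388 probes, whose columns had medians of 8.99 to 9.04, positive values rising with the scanner signal (r of 0.9995 to 0.9999 per array) and no centring of genes. How its probes were filtered is not given in the sources used here.

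Control spots and outlier spots (131 to 251 per array) were left out, no spot was saturated, spots of a probe were averaged, and log2 signals were set relative to the 75th percentile of each array. The number of arrays limits the precision. Old names were updated through RefSeq (2013 probes). Each gene took its probe with the highest mean signal. The limma package (version 3.58.1, R 4.3.3, statmod 1.5.0) fitted 4 group means to the 8 arrays (degrees of freedom were 4 residual and 2.70 prior), with eBayes and two-sided tests. The fit was tested on simulated data.

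Every member is accounted for, members that passed are given with their statistics, and up to 5 with the smallest p where none passed. Pathway lists give the names of at most 4 passing genes, the most changed. Members and lists were chosen with earlier results of these data known. Alternatives were quantile and median scaling, normexp with an offset of 50, the deposited matrix, other filters on dim probes, trend and robust eBayes, only the arrays compared, the mean of probes, a fold of at least 2, a replicate block, and single arrays left out. Same-numbered replicates were not taken as pairs: the labels give only a number, and their deviations from group means correlated between groups with r from -0.14 to 0.34. Figures used Python 3.11.15 and matplotlib 3.10.9.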

Additional observations from a re-analysis of the deposited data

Results flagged for a closer look

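Fgf15 was lower in R141C than in WT at day 0 and higher at day 6, on both arrays each time. The difference between the genotype differences was 2.97 on the log2 scale, with an unadjusted p of 0.00101 and an adjusted p of 0.475 in the limma fit over all genes, so it did not pass. Without 1 array it lay between 2.56 and 3.38. Spry2 had a lower mean at day 6 in WT and a higher one in R141C, with almost no gap between the days: in WT 1 array of each day read 0.50, and in R141C the nearest arrays read 0.70 and 0.72. Its difference between responses was 0.56 (unadjusted p = 0.162, adjusted p = 0.921), so this difference did not pass either.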

How the results depend on the processing

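Of the 30 tested members, 13 passed between days in WT and 10 to 14 under the scalings, filters and models tried. Leaving out 1 array gave 8 to 13, with 8 without either WT day 6 array. In R141C, 11 passed, against 9 to 11 under most alternatives, 7 with only the arrays compared, and 5 to 11 when 1 array was left out. The lowest counts were 6 without replicate 1 and 5 without replicate 2 of R141C day 0. Fewer arrays gave the fit fewer degrees of freedom, and the lone array of a group was assumed to vary like the others. Both genotype comparisons and the difference between responses had 0 member calls in every setting run. No difference that passed reversed in any setting run. Differences that did not pass could change sign when 1 array was left out, as for Fgf5 in R141C (-0.84 to 2.48) and Spred1 in WT (-0.62 to 0.50). The replicate block gave 13 calls in WT, 11 in R141C and 0 in each other comparison. A crossed pairing at day 0, chosen after the data had been seen, also gave 0. The median difference of all tested genes in WT was -0.12, and 0.0044 after a median shift, which kept 13 calls. In WT, 10 members passed when every array had to be above background, since 27 members were then tested. Signals near background limit Fgf3 in R141C day 0, Fgf9 in WT day 0 and Fgf17 in WT day 6.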
